A study of Homo sapiens with 26 samples.

Results

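Of the 6173 places in the genome where FLAG-tagged ZBTB24 was mapped in HCT116 cells, 1721 (27.9%, 95% Wilson interval 26.8 to 29.0%) lay inside a gene and away from its start. A peak was taken as a gene-body peak where its midpoint lay inside any transcript of the authors' assembled annotation and more than 1000 bp from every transcript start. It was placed in an exon where the midpoint fell on an exon of any transcript and otherwise in an intron, which gave 112 exon and 1609 intron peaks. The other peaks were 1142 within 1000 bp of a transcript start, called promoter peaks below, and 3310 outside transcripts. Shares given over peaks carry intervals that cover counting error only, and peaks are not replicates.

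ZBTB24 is a BTB zinc finger protein, and its loss causes a form of ICF syndrome, an inherited disorder of immunodeficiency, unstable centromeres and facial anomalies in which satellite DNA loses methylation. DNMT3B is the de novo DNA methyltransferase mutated in another form of the syndrome, and it is known to act along the bodies of transcribed genes. Introns make up most of the length of human genes and hold many enhancers, so a factor bound inside a gene may sit at a regulatory element of that gene, of another gene or of none.

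All samples were HCT116, a human colorectal cancer cell line. Chromatin was precipitated with an antibody against the FLAG tag from 3 FLAG-ZBTB24 lines (numbered 5, 7 and 11), 2 FLAG-DNMT3B lines and 2 lines with the tag alone, each with its own input library. RNA was sequenced from 3 libraries with a short hairpin RNA against ZBTB24 (shZBTB24) and 3 with a hairpin against no target (shNT), from 2 FLAG-ZBTB24 libraries (lines 5 and 11) and 2 FLAG-only libraries, and from 1 DNMT3B knockout library and 1 wild-type library with neither tag nor hairpin. The hairpin and FLAG lines were made with lentivirus and puromycin selection, and each FLAG line was grown from a single cell, so differences between clones cannot be told apart from those between FLAG groups. The tagged protein was added to cells that keep their own ZBTB24.

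The deposited files give 1 merged peak list for each factor and 1 pooled expression value for each RNA group, so no value per library, no spread and no sequencing depth could be given. In the authors' deposited table for the FLAG lines, the locus that holds ZBTB24 together with MICAL1 stood at 155 FPKM in FLAG-ZBTB24 and 17.8 FPKM in FLAG-only (log2 ratio 3.12, q = 0.0192). FPKM counts fragments per kilobase of transcript, scaled to the number of mapped fragments. ZBTB24 was not listed in the shZBTB24 table, which holds loci with a log2 fold change over 0.50 in either direction. The p-values of the authors' test in that table run only up to 0.0549. A fall of ZBTB24 RNA past both limits is therefore not shown, and the knockdown is not borne out by these values. A fall with a higher p would not be listed either. DNMT3B was not among the knockout rows used, which list only higher loci and could not show it lower, so the knockout could not be checked.

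Gene-body peaks had scores much like those of the other peaks, with fewer very high ones. The authors' score per peak had a median of 8.10 over gene-body peaks (quartiles 6.62 and 10.4, range 3.15 to 40.8), against 8.37 over promoter peaks (quartiles 6.76 and 10.8, up to 55.4) and 8.29 over peaks outside transcripts (quartiles 6.79 and 10.9, up to 43.6). What the score measures is not stated by any label or header, so it served only to rank peaks within this list. Scores of 20 or more were held by 43 gene-body peaks (2.5%), 56 promoter peaks (4.90%) and 149 peaks outside transcripts (4.50%). Exon peaks had a median score of 8.20 and intron peaks one of 8.09. The median width was 188 bp in gene bodies, 196.5 bp at promoters and 191.5 bp outside transcripts.

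**Figure D1:**
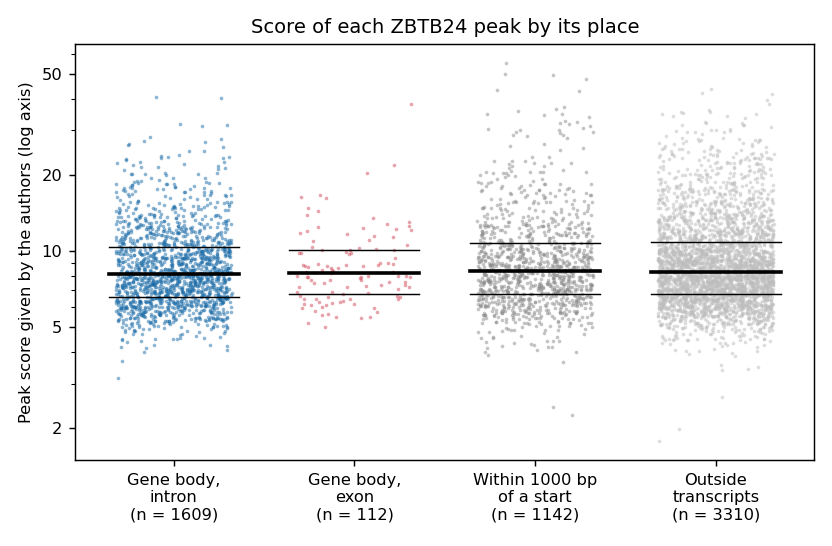
Score of every ZBTB24 peak on a log axis, by the place of its midpoint, 1 point per peak, with the median as a thick line and the quartiles as thin lines. The 4 medians lie between 8.09 and 8.37, and the 2 gene-body groups reach 40.8 and 38.

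The merged list can be read further from the decimals of its scores. Every score times 6 has at most 5 decimals, as it would if each were the mean of 1, 2 or 3 values with 5 decimals. Among gene-body peaks, 718 scores (41.7%) had 5 decimals as they stood, 417 (24.2%) needed a mean of 2 values and 586 (34.1%) a mean of 3. Peaks that needed 3 values had a median score of 9.17 and a median width of 240.5 bp, those that needed 2 had 7.24 and 152 bp, and those with 5 decimals as they stood 8.0 and 183 bp. A mean of 2 or 3 values can also end at 5 decimals, so that last kind may mix all 3 and gives no count of single values. A score that needed 3 values was found in 34.1% of gene-body peaks, 38.1% of promoter peaks and 36.6% of peaks outside transcripts. It was found in 49 of the 112 exon peaks (43.8%, 34.9 to 53.0%) and 537 of the 1609 intron peaks (33.4%, 31.1 to 35.7%). The files do not say whether these values came from the 3 FLAG-ZBTB24 lines.

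Per base, ZBTB24 peaks were sparse in gene bodies. There were 1.33 peaks per Mb over the 1298 Mb of gene body, 8.21 per Mb within 1000 bp of a start and 2.11 per Mb outside transcripts, where the last counts every base as far as the final transcript of a chromosome, assembly gaps included. Exons held 1.54 peaks per Mb and introns 1.31. The exon share of gene-body peaks, 6.51% (5.44 to 7.77%), had an interval that included the 5.6% of gene-body bases that are exonic. That share depends on the distance limit, since it stood at 7.81% with a limit of 500 bp and at 4.50% with one of 5000 bp. The list held 0 ZBTB24 peaks on chromosomes X and Y, whose 56.5 Mb of gene body count in these densities. Over the autosomes alone the density was 1.39 per Mb in gene bodies, 8.53 near starts and 2.33 outside transcripts. Among autosomes it ran between 0.960 gene-body peaks per Mb on chromosome 15 and 1.94 on chromosome 6.

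Most members lay over 10 kb from any start, but the member rule itself sets a least distance of 1000 bp. The distances of gene-body bases in general were not counted beside them. The median distance to the nearest transcript start was 20.6 kb (quartiles 6.90 and 52.3 kb, up to 817 kb in ERBB4). A start lay within 5 kb of 321 members (18.7%), while 1177 (68.4%) were over 10 kb and 458 (26.6%) over 50 kb away. Around the limit itself, 26 members lay up to 100 bp beyond it, with a median score of 8.63, and 20 peaks inside transcripts lay up to 100 bp within it, with a median of 8.47. The member closest to the limit, at 1008 bp, was at chr4:141263341-141263837 (score 9.98), and the closest peak left out, at 995 bp, was at chr1:113499941-113500225 (score 18.1). All coordinates are on the hg19 build.

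Along the host transcripts the peaks were spread almost evenly. Of 1579 peaks in named transcripts, 557 (35.3%) fell in the 5′ part when each transcript was cut into 3 equal parts, 507 (32.1%) in the middle part and 515 (32.6%) in the 3′ part, where 33.1%, 33.6% and 33.3% of the gene-body bases lie. First introns, which often carry regulatory elements, held 433 of 1487 intron peaks in named transcripts (29.1%, 26.9 to 31.5%), against 23.5% of the intron bases. The introns that held a peak had a median length of 36.5 kb (quartiles 11.0 and 105 kb), and the same was not counted over intron bases in general. Of the 112 exon peaks, 56 lay in the last exon of a transcript, 41 in an inner exon, 14 in a transcript with a single exon and 1 in a first exon. The distance limit leaves out the first 1000 bp of every first exon, so few peaks could fall there. The share of exon bases in each kind of exon was not counted, so these counts show no preference. The exons that held a peak had a median length of 1170.5 bp.

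**Figure D2:**
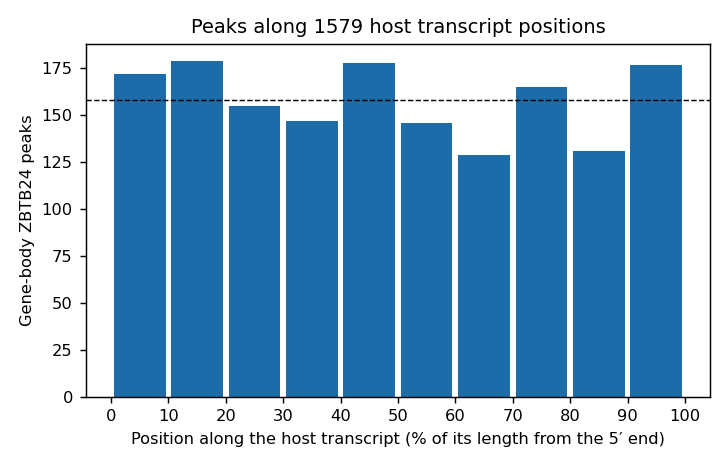
Number of gene-body ZBTB24 peaks in each of 10 equal parts of the host transcript, with the 5′ end at the left and the dashed line at the mean of 157.9 per part. The parts hold between 129 and 179 peaks and show no single place of build-up.

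The intron peak with the highest score, 40.8, lay in intron 1 of 20 of TAOK3, a STE20-family kinase gene, at chr12:118795105-118795556. It was 15.4 kb from the start of that transcript and 1.585 kb from the nearest start of any transcript. The next, with a score of 40.2, lay in intron 4 of 5 of LOC100506457, at chr2:12630922-12631717 and 71.0 kb from any start. CFAP54, a gene of the ciliary axoneme, held a peak of score 31.8 in intron 55 of 67, at chr12:97143469-97144456. These peaks were 452, 796 and 988 bp wide, all above the upper quartile of 285 bp over gene-body peaks.

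Further down the ranking, DNAJC5B, of the DnaJ chaperone family, held 2 neighbouring peaks in intron 3 of 5, at chr8:66976006-66976723 (31.4) and chr8:66976843-66976945 (26.2). COL24A1, a fibrillar collagen gene, held one of score 31.3 in intron 45 of 59, at chr1:86284071-86284447. The zinc finger gene ZNF608 (27.7, chr5:124060715-124061209) and EOMES (26.9, chr3:27762599-27762908), which encodes a T-box transcription factor of early development and lymphocytes, held theirs in intron 1. Only the EOMES peak among these 4 genes lay near a start, at 1.453 kb. The remaining intron peaks of the 15 highest lay in the long non-coding RNA genes LINC00536 (27.2) and LINC01060 (26.6), in LOC440600 (24.04), in GALNTL5 (25.8) and EFCAB5 (24.8), and in 2 transcripts without a name, of which the one at chr8:141501431-141501928 (28.2) is in the assembled locus of AGO2. The LINC01060 peak, chr4:189423934-189431525, was 7592 bp wide, the widest of the whole list; the next widest member, in LINC01501, was 1422 bp.

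Among exon peaks, one stood well above the rest. It lay in exon 2 of 6 of LOC101927292, at chr12:50316759-50317164, with a score of 38. PNPLA6, which encodes neuropathy target esterase, followed with 21.9 in exon 21 of 35, at chr19:7616079-7616465, and an unnamed transcript with a single exon on chromosome 9 with 20.4. The other 7 of the 10 highest ran between 13.5 and 16.7. They lay in the last exon of CLIC5 (16.7), a chloride intracellular channel gene, in inner exons of the DNA primase gene PRIM2 (16.3), the pseudogene GGTA1P (14.8), the bone morphogenetic protein receptor gene BMPR1B (14.4), SUSD1 where it overlaps MIR3134 (13.8) and KIAA0895L (13.5), and in an unnamed transcript on chromosome 15 (16.2).

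The named transcripts over the peaks belong to 1219 host genes, 4.64% of the 26281 gene names of the annotation. A host is a gene with a transcript that contains the midpoint of a peak. Of the members, 1584 had a named host and 137 lay in unnamed transcripts only, 60 of these in an assembled locus that also holds a named gene. Names were not always unique, since 56 members had 2 or more hosts and 49 lay under transcripts of both strands. Hosts were long genes, with a median length of 131 kb (quartiles 54.8 and 289 kb) against 15.3 kb for genes without a member. The share of genes that were hosts was 0.365% up to 10 kb, 2.49% between 10 and 50 kb, 7.23% between 50 and 100 kb, 15.9% between 100 and 300 kb and 36.8% over 300 kb. Peaks per Mb did not rise with length, at 1.74, 1.24, 1.24, 1.34 and 1.30 in the same classes. A longer gene has more bases in which a peak can fall, so the host share is no measure of preference for long genes. Of 1160 hosts matched to RefSeq by symbol, 980 (84.5%) were protein-coding and 140 (12.1%) long non-coding, against 75.5% and 11.7% of all matched genes. MicroRNA genes made up 1.03% of the matched hosts and 7.21% of all matched genes. These shares were not compared among genes of like length. A ZBTB24 promoter peak was present as well in 55 hosts (4.51%) and in 927 other genes (3.70%).

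Most hosts, 935, held 1 member, 196 held 2, 54 held 3 and 34 held 4 or more. CSMD3, a giant transmembrane protein gene, and EYS, a gene of the photoreceptor, held 10 each, with scores of 5.86 to 9.81 and of 6.01 to 15. DLGAP1, which encodes a scaffold of the synapse, and NALCN, the sodium leak channel gene, held 8 each. NAALADL2, CCDC102B and the cAMP phosphodiesterase gene PDE4D held 7 each, and PDE4B, COL24A1 and the protocadherin gene PCDH15 held 6 each. Those with 5 were the recombination gene RAD51B, EFCAB5, the diacylglycerol kinase gene DGKB, the Parkin gene PARK2, the neurexin-family gene CNTNAP2 and MIR6130. MIR6130 is annotated here with a transcript of 837 kb, and 4 of its 5 members lie in no other named gene, so its name says little about them.

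Among hosts with 4 members were the glutamate receptor genes GRM5 and GRIA4, the receptor tyrosine kinase gene ERBB4, the adhesion receptor gene ADGRB3, the fibrillin gene FBN2, BMPR1B, the receptor phosphatase gene PTPRM and MYO16. Others with 4 were RNLS, FRMD6, CCSER1, DISC1FP1, LOC101927421, LOC100507065 and SCHIP1 with its read-through IQCJ-SCHIP1, whose 4 peaks are the same. The length of these genes differed widely. They were chosen for holding 4 or more peaks, so their density is high by construction and tends to be higher in the shorter ones. It was 28.0 peaks per Mb in EFCAB5 (179 kb), 22.1 in NALCN (363 kb) and 20.6 in CCDC102B (340 kb). In CNTNAP2 (2305 kb) it was 2.17 and in ERBB4 (1163 kb) 3.44. The 1.33 per Mb of gene bodies as a whole involves no such choice, so the values do not compare directly.

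**Figure D3:**
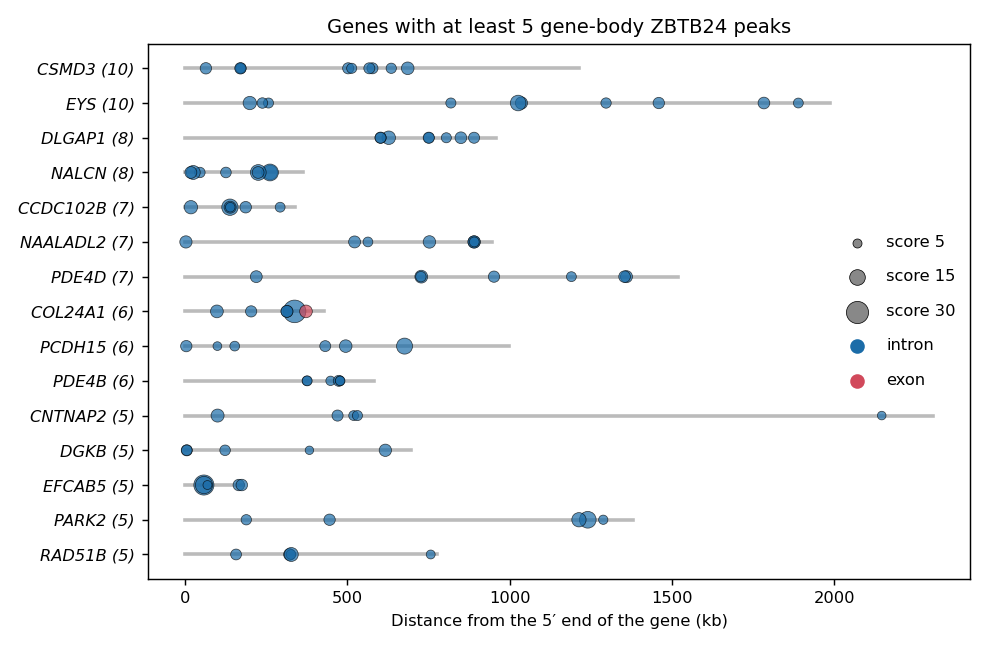
Place of each gene-body ZBTB24 peak along the 15 named genes with 5 or more of them, other than MIR6130, in kb from the 5′ end of the gene. Grey lines are the genes, point area grows with the score, intron peaks are blue and the single exon peak, in COL24A1, is red; peaks of NALCN, CCDC102B and PDE4B sit in tight groups.

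Within some hosts the peaks came in tight groups, so they may not be independent of each other. Another ZBTB24 peak lay within 1000 bp of 233 gene-body peaks (13.5%) and of 557 peaks outside transcripts (16.8%). The examples below are from hosts named for holding 4 or more peaks. In NALCN, 2 of the 8 peaks were side by side in intron 15 (chr13:101806103-101806140 and chr13:101806254-101807247) and 2 in intron 14 (chr13:101842460-101843125 and chr13:101843151-101843465). CCDC102B had 4 of its 7 peaks within intron 6, between chr18:66520289 and 66522105. CSMD3 had 3 of its 10 in intron 3, between chr8:114277484 and 114278267. The 2 DLGAP1 pairs, in intron 7 at chr18:3703683-3704070 and in intron 4 at chr18:3852311-3852685, were of the same kind. The files do not say how peaks of the libraries were joined, so a pair may be 1 bound place with 2 entries.

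ZBTB24 gene-body peaks rarely met DNMT3B. Only 5 of 1721 overlapped a DNMT3B peak by at least 1 bp (0.291%, 0.124 to 0.678%), while DNMT3B peaks covered 4.04% of the gene-body bases. Of promoter peaks 0 of 1142 overlapped, which allows a share of up to 0.263% by the limit of 3 counts and up to 0.335% by the Wilson interval, where DNMT3B covered 3.17% of bases. Outside transcripts 0 of 3310 overlapped, which allows up to 0.0906% by 3 counts and 0.116% by the Wilson interval, where it covered 0.0264%. The median distance to the nearest DNMT3B peak was 230 kb from gene-body peaks, 51.3 kb from promoter peaks and 290 kb from peaks outside transcripts. Within 10 kb of a DNMT3B peak lay 77 gene-body peaks (4.47%), 242 promoter peaks (21.2%) and 44 outside transcripts (1.33%).

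The 5 that met DNMT3B were of low to middling score. They lay in exon 5 of 7 of SDHAP3 (9.76, chr5:1580029-1580367), intron 10 of 13 of SDHA (9.18, chr5:247326-247632), intron 12 of 21 of EIF3A (6.34, chr10:120816412-120816702), intron 6 of 8 of PARL (5.68, chr3:183556687-183556795) and intron 10 of 23 of RAP1GAP2 (4.50, chr17:2893739-2893844). SDHA encodes the flavoprotein of succinate dehydrogenase and SDHAP3 is a pseudogene copy of it, so reads may be shared between both places and they count as uncertain. EIF3A encodes a subunit of a translation initiation factor, PARL a mitochondrial rhomboid protease and RAP1GAP2 a regulator of the small GTPase Rap1. All 5 lay wholly under a DNMT3B peak.

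Genes that hold a DNMT3B peak held fewer ZBTB24 peaks per base than genes that hold none, in every class of gene length. The density was 0.614 and 1.57 per Mb over all lengths. It was 0.462 against 1.87 up to 10 kb, where the first rests on 1 peak, 0.429 against 1.70 between 10 and 50 kb, 0.524 against 1.75 between 50 and 100 kb, 0.577 against 1.70 between 100 and 300 kb and 1.11 against 1.33 over 300 kb. Of hosts, 183 of 1219 (15%) held a DNMT3B peak, against 23.5% of other genes, although hosts were longer. Of the 34 hosts with 4 or more members, PDE4B alone did, over 2964 bp. Even within genes that hold DNMT3B, where its peaks covered 15.3% of the bases, 5 of 213 members overlapped one (2.35%, 1.01 to 5.38%). Within the 183 hosts among these genes the cover was 6.07%.

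**Figure D4:**
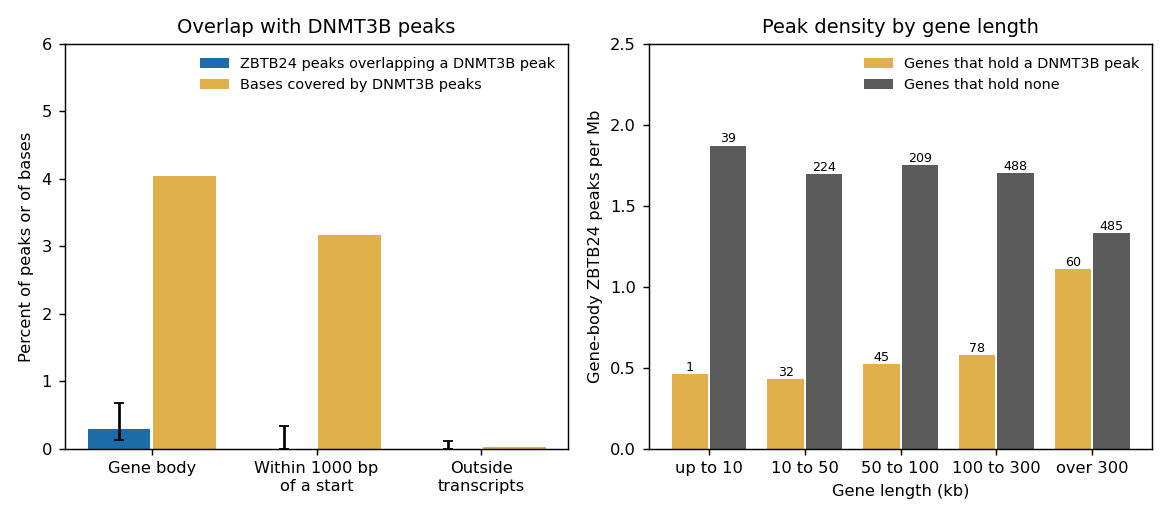
Left, share of ZBTB24 peaks that overlap a DNMT3B peak (blue, with 95% Wilson intervals) beside the share of bases under DNMT3B peaks (yellow), in percent, by place. Right, gene-body ZBTB24 peaks per Mb in genes that hold a DNMT3B peak (yellow) and genes that hold none (grey) by gene length, with the number of peaks over each bar; the yellow bar is the lower one in all 5 classes.

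Lists of genes tied to the proteins and cells studied were looked up among the hosts. None of the 16 genes of DNA methylation, the 4 genes of ICF syndrome or 7 genes reported as ZBTB24 targets held a gene-body peak. Of all genes 4.64% were hosts, and lists this short can hold 0 at such a share, so the absence says little. Their median gene lengths, 60.4, 33.8 and 17.2 kb, fall in classes where 7.23%, 2.49% and 2.49% of genes were hosts. Of the 40 genes on a list made for adhesion and the cytoskeleton 9 were hosts (22.5%), namely CNTNAP2, CTNNA3, DST, MACROD2, MAGI2, MYO10, PARD3, PTPRM and TJP1. MACROD2 is counted because it stands on that list, not for a known part in either. That list has a median gene length of 618 kb, in the range where 36.8% of genes were hosts. Of 40 receptor tyrosine kinase and ERBB ligand genes 5 were hosts (12.5%), namely EPHA3, EPHA7, ERBB4, NRG1 and ROR1, with a median gene length of 123 kb, in the class where 15.9% of genes were hosts. Chromatin genes gave ARID1B, CHD7 and SMARCA2 among 33 remodellers, HDAC9, KAT6B and NCOA1 among 30 acetyltransferase and deacetylase genes, and KDM4C and MECOM among 41 annotated histone methylation genes. Hosts made up 9.09% of the remodellers, 10% of the acetyltransferase and deacetylase genes and 4.88% of the histone methylation genes. The median gene lengths of these 3 lists, 86.1, 41.0 and 84.4 kb, fall in classes where 7.23%, 2.49% and 7.23% of genes were hosts. For these and the other lists, the share in the class of the median is not the share to expect of the list. Genes of 1 list differ in length, and 1 HDAC9 peak lay 401 kb from the start of its transcript. No list was tested against genes of matched length. The MECOM peak, in intron 1 at chr3:168867278-168867556, had the highest score of the hosts on these lists, 22.4, and lay 1.895 kb from the nearest start. Of 32 Wnt and colorectal cancer genes LEF1 was a host (3.125%), and of 45 interferon-stimulated genes MX2 (2.22%). The median gene lengths of these lists, 83.2 and 19.0 kb, fall in classes where 7.23% and 2.49% of genes were hosts.

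The expression tables hold only a part of the genes, so hosts that are not listed are not known to be unchanged. The shZBTB24 and FLAG-ZBTB24 tables list loci whose log2 fold change exceeded 0.50 in either direction, and the knockout table loci that were higher by a log2 fold change above 1. By the authors' test, p runs up to 0.0549 in the shZBTB24 table, 0.839 in the FLAG-ZBTB24 table and 0.775 in the knockout table. Hosts were listed about as often as other genes in the shZBTB24 table (7.30% of hosts, 8.05% of all genes) and in the FLAG-ZBTB24 table (6.97% and 7.22%). Of hosts 15.9% were listed in the knockout table, against 9.09% of all genes, a difference that was not tested. Whether the 3 hairpin libraries of a group were separate cultures is not stated, and the authors' p-values there may therefore reflect technical spread alone. All values and tests that follow are those of the authors' pooled comparisons, in which fewer cells that express a gene and less RNA per cell cannot be told apart.

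With the hairpin against ZBTB24, whose effect on ZBTB24 RNA is not shown, the listed hosts were lower more often than higher. The authors' deposited table holds 88 host loci, of which 54 were lower and 34 higher in shZBTB24 than in shNT, with a median log2 fold change of -0.62 against 0.55 over all 1965 loci. The number past the threshold of q under 0.05 was 13 lower (14.8%) and 5 higher (5.68%), where 9.82% of all listed loci were called lower and 12.2% higher. The difference between hosts and the other loci was not tested. Hosts were expressed at low levels, with a median of 3.44 FPKM in shZBTB24 and 3.77 FPKM in shNT in the authors' deposited table, against 8.69 FPKM and 8.07 FPKM over all loci. At an unadjusted p under 0.05, 86 of the 88 (97.7%) were called, beside 97.0% of the whole list, which was chosen by the authors with p up to 0.0549.

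The 5 hosts that rose with the hairpin against ZBTB24 differed in kind. NRG1, which encodes neuregulin 1, a ligand of ERBB3 and ERBB4, rose to 1.29 FPKM in shZBTB24, against 0.151 FPKM in shNT, by the authors' deposited table (a log2 fold change of 3.10, q = 0.00493). The shNT value is low, and the log2 ratio of NRG1 was 2.47 with 0.1 FPKM and 0.995 with 1 FPKM added to both values. Its 2 peaks lay in intron 1 of 4 of a long transcript (chr8:32435066-32435208, score 7.13) and in intron 7 of 12 of another (chr8:32606849-32607138, 5.46). HPGD, the enzyme that degrades prostaglandins, stood at 14.5 FPKM in shZBTB24 and 6.62 FPKM in shNT, per the authors' deposited table (1.13, q = 0.00493). For CUL1, the scaffold of SCF ubiquitin ligases, the authors' deposited table gave 19.0 FPKM in shZBTB24 and 11.0 FPKM in shNT (0.79, q = 0.0437), with a peak in intron 1 of score 9.56 that lay 1.233 kb from the nearest start. LINC00470 (log2 fold change 2.04) and the mucin-type glycosyltransferase gene GALNT5 (1.62) were the other risen hosts of the authors' deposited table. With a distance limit of 5000 bp only NRG1 and GALNT5 of these 5 remain hosts.

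The 13 hosts that fell did so by a log2 fold change of -2.08 to -0.93 in the authors' deposited table, and 5 of them with q = 0.00493 are given first. CNTNAP2, a cell adhesion protein of axons with 5 peaks, fell to 0.319 FPKM in shZBTB24, against 1.35 FPKM in shNT, by the authors' deposited table (a log2 fold change of -2.08, q = 0.00493). With 0.1 FPKM added to both values its log2 ratio was -1.79, and with 1 FPKM added -0.83. The netrin receptor gene UNC5B had 9.64 FPKM in shZBTB24 and 22.2 FPKM in shNT per the authors' deposited table (-1.20, q = 0.00493). PCDH7, a protocadherin gene with 3 intron peaks, was among the more highly expressed, with 21.8 FPKM in shZBTB24 and 41.9 FPKM in shNT in the authors' deposited table (-0.94, q = 0.00493). The collagen VI gene COL6A3 stood at 1.08 FPKM in shZBTB24 and 3.14 FPKM in shNT in the authors' deposited table (-1.54, q = 0.00493). UNC13A, which primes synaptic vesicles, was listed in the authors' deposited table at 9.57 FPKM in shZBTB24 and 18.3 FPKM in shNT (-0.93, q = 0.00493).

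Another 7 fallen hosts had log2 fold changes between -1.70 and -0.99 in the authors' deposited table. They were the calcium channel subunit gene CACNG7 (-1.70), the mitochondrial calcium-binding protein gene EFHD1 (-1.46), the transcription factor gene CREB5 (-1.38), TNFAIP8 (-1.05), the lens filament gene BFSP1 (-1.01), the heme biosynthesis gene COX10 (-1.01) and the lipoprotein receptor gene LRP1B (-0.99). CREB5 carried the strongest peak of the 13, with a score of 13.4 in intron 1 at chr7:28341225-28341412. Among the hosts on the lists, MECOM had 1.94 FPKM in shZBTB24 and 0.949 FPKM in shNT, and its q of 0.0614 in the authors' deposited table missed the threshold. SMARCA2 was listed at 5.37 FPKM in shZBTB24 and 3.49 FPKM in shNT, with q = 0.29 in the authors' deposited table.

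In cells with added FLAG-ZBTB24, few loci were called at all. Of 81 host loci listed, 44 had higher and 37 lower values in FLAG-ZBTB24 than in FLAG-only, and 1 in each direction passed the threshold (1.23% each). Over the 1754 loci of the list, 0.228% were called higher and 0.342% lower. At an unadjusted p under 0.05, 11 host loci (13.6%) were called, beside 9.92% of all. DNAH2, an axonemal dynein heavy chain gene, rose to 0.790 FPKM in FLAG-ZBTB24, against 0.0959 FPKM in FLAG-only, by the authors' deposited table (a log2 fold change of 3.04, q = 0.0192). Both values are low, and the log2 ratio was 2.18 with 0.1 FPKM and 0.71 with 1 FPKM added to both. DNAH2 held peaks in intron 12 of 85 (chr17:7649338-7649688, score 20.3) and in intron 58 (chr17:7707334-7707559, score 14.5).

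HPGD was the one host called in both tables, with opposite signs. It fell to 1.5 FPKM in FLAG-ZBTB24, against 14 FPKM in FLAG-only, by the authors' deposited table (a log2 fold change of -3.22, q = 0.0192), and rose in shZBTB24 as given above. Its peak had a score of only 5.64 and lay in the last exon, 7 of 7, at chr4:175411705-175411842, 32.3 kb from the start of that transcript. It was also 1.238 kb from the start of an unnamed short transcript, so HPGD is not a host when the distance limit is 5000 bp. Of the 17 host genes listed in both tables, which share no libraries, 3 were higher in shZBTB24 and lower in FLAG-ZBTB24, 5 lower and higher, 2 higher in both and 7 lower in both. DYX1C1 and its read-through DYX1C1-CCPG1, both among the 3, are 1 locus. Over all 403 gene symbols listed in both tables the counts in the same order were 143, 85, 61 and 114.

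**Figure D5:**
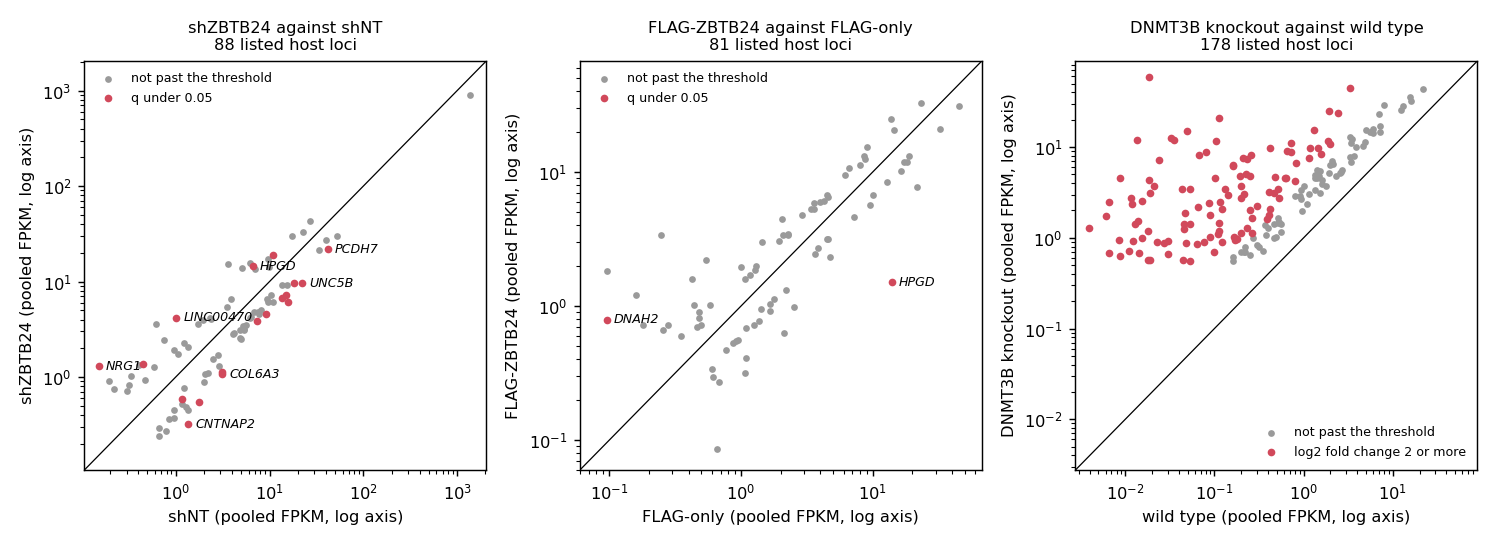
Pooled FPKM of each listed host locus from the authors' deposited tables, on log axes, in shZBTB24 against shNT, FLAG-ZBTB24 against FLAG-only and DNMT3B knockout against wild type, with the diagonal of equal values. Red points are past the threshold (18, 2 and 107 loci); HPGD lies above the diagonal for shZBTB24 and below it for FLAG-ZBTB24, and all 178 points for the knockout lie above it because only higher loci were listed.

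The knockout comparison has 1 library per group and so no replicate check, and 0 of its host loci (7 of all 2243) had a q under 0.05. A log2 fold change of at least 2 was reached by 107 of the 178 listed host loci (60.1%), beside 52.8% of all listed loci. The wild-type value was under 1 FPKM in 69.7% of listed host loci and 56.8% of all. The largest was INA, which encodes the neuronal intermediate filament internexin, with 59.4 FPKM in the knockout and 0.0186 FPKM in wild type by the authors' deposited table (a log2 fold change of 11.64). SDK2, a synaptic adhesion gene, had 11.9 FPKM in the knockout and 0.0136 FPKM in wild type in the authors' deposited table (9.77). The 8 next in the authors' deposited table were the locus of CD302, LY75 and their read-through (9.01), PRTFDC1 (8.58), the calcium pump gene ATP2B2 (8.55), the adenylate kinase gene AK5 (8.41), the dynein gene DNAH8 (8.36), DLC1 (8.24), APBA2 (8.24) and TRPS1 (8.16). These wild-type values lie near 0 in a single library, and the order depends on them. With 1 FPKM added to both values INA still led (5.89), APBA2 (3.93) stood above SDK2 (3.67), and ATP2B2 (1.78), TRPS1 (1.45) and DNAH8 (1.19) were under the fold of 2. AK5 held the strongest peak of these 10, with a score of 21.6 in intron 10 at chr1:77967380-77968428.

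Several hosts with many peaks were listed as well, at low levels. Per the authors' deposited table, DLGAP1 stood at 4.83 FPKM in the knockout and 0.193 FPKM in wild type (log2 fold change 4.65). COL24A1 (5.01), MYO16 (6.80), PDE4D (2.91) and CCDC102B (2.42) were past the fold in the authors' deposited table too, each under 1 FPKM in both libraries. With 1 FPKM added to both values these 4 had log2 ratios of 0.86, 0.95, 0.77 and 0.73, under the fold of 2, and CCDC102B already stood at 1.92 with 0.1 FPKM added. PARK2 (1.66), with 5 peaks, was listed there below that fold. So was MAGI2 (1.78), which holds 1 peak and is named from the list of adhesion and cytoskeleton genes.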

How the data were processed

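ChIP-seq and RNA-seq were run on HCT116 lines. The hg19 build and the tools HISAT2, StringTie, Cufflinks and MACS2 are named by the submitters' processing notes, without versions. The authors deposited 1 merged peak list per factor, with a score per peak whose meaning no label states, and 1 merged transcript annotation. Expression tables hold pooled FPKM values per group, a log2 fold change and a p-value and q-value per locus, all as the authors deposited them. How peaks were merged, and whether FLAG-only libraries or inputs served as background, is not stated by the labels or headers. Depth is unknown. The 1112 knockout rows labelled DNMT3BKOshZB match no sample used here and were left out.

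Peaks were placed by midpoint against transcripts and exons, and hosts were matched to table rows by gene symbol. A locus was called at a q under 0.05, and in the knockout table, with 1 library a group, at a log2 fold change of at least 2. Fold changes have the group named first on top. Base shares were counted over gene-body bases more than 1000 bp from every start. Python 3.11.15, numpy 2.4.6, scipy 1.17.1, pandas 2.3.3 and matplotlib 3.10.9 were used, and the interval code was tested on simulated data. No test across libraries could be run. No genome of the hg19 build was used here, so no peak sequence is shown and the planned motif search was not run.

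The members, gene lists and rules were chosen with earlier results of these data known. Named were the 15 intron and 10 exon peaks of highest score, up to 5 members that overlap DNMT3B, hosts with 4 or more members, hosts with a q under 0.05, the 10 hosts of largest knockout fold and hosts on the lists. A few genes that this rule names are not reported here.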

Additional observations from a re-analysis of the deposited data

How the results depend on the processing

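No paired analysis was possible because the files hold 1 pooled value per group, and for the same reason no replicate could be left out in turn. The motif alternatives were not run, since no genome of the build was used here. The number of gene-body peaks was 815 with only scores at or above the median of the list and 586 with only scores that need a mean of 3 values, a choice made after seeing the data; both keep fewer peaks by construction, and under the other alternatives it ran between 1400 and 1908. The median score became 10.6 with the higher-scoring peaks, also by construction. The exon share was 7.81%, 5.31% and 4.50% with limits of 500, 2000 and 5000 bp. The share overlapping DNMT3B stayed between 0.174% and 0.312%. At an unadjusted p under 0.05 the called hosts were 86 in the shZBTB24 table and 11 in the FLAG-ZBTB24 table. In the shZBTB24 table a limit of 5000 bp left 12 called hosts, 2 higher and 10 lower, and matching by coordinates gave 25, 6 higher and 19 lower. The FLAG-ZBTB24 table gave 1 called host with at least 1 FPKM in either group, where DNAH2 is lost, and 1 with a limit of 5000 bp, where HPGD is lost. Adding 0.1 FPKM to the 48 named host values moved 17 fold changes and adding 1 FPKM moved 28, with 0 changes of sign. Of 18 named hosts past the knockout fold, 1 was no longer past it with 0.1 FPKM added and 10 with 1 FPKM added.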

Other observations

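Peak widths in gene bodies had a repeated value. Exactly 143 bp was the width of 75 gene-body peaks (4.36%), and the next most frequent width, 145 bp, was that of 18. Over the whole list 234 of 6173 peaks (3.79%) were 143 bp wide and 86 were 144 bp wide. Gene-body peaks of that width included 1 peak each in intron 1 of TNFAIP8 and of NRG1 and 1 of the 3 neighbouring peaks in intron 3 of CSMD3. At the other end, 10 gene-body peaks and 28 of all peaks were under 20 bp wide.

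The peaks were numbered up to 12724 in the authors' list, which holds 6173 of them. Of the annotation's transcripts named for a single microRNA, 96 span more than 1000 bp, and 16 gene-body peaks lay in such transcripts and in no other.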
